A study of Mus musculus with 10 samples.

Results

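The 44 protein-coding genes of collagen chains were followed in the uterus of HSD17B1TG and WT mice. They are the genes of the deposited expression table whose symbol is Col, a type number, the letter a and a chain number. They were taken from 29268 listed genes by symbol alone, but the family was chosen with earlier results of these data known. RNA-seq was available for 5 HSD17B1TG and 5 WT females of the FVB/N strain, all 4 months old and each with its own library. HSD17B1TG mice carry the cDNA of human *HSD17B1*, an enzyme that turns estrone into the more potent estradiol, behind a chicken beta actin promoter with a CMV enhancer that is active in all tissues, and the line is kept heterozygous. WT mice carry no transgene. According to the methods of the study, HSD17B1TG females do not cycle, while WT uteri (in the section on histology) were taken at any phase of the cycle, so the genotype and the absence of cycling cannot be told apart here. The mice are called TG1 to TG5 and WT1 to WT5. The numbers are names only and pair no mice.

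Collagens are the main proteins of the extracellular matrix. Their chains are wound into a helix in the endoplasmic reticulum, secreted, trimmed and crosslinked, and the type of chain decides what they build: fibrils (fibrillar types), molecules that sit on fibrils (FACIT), the sheet under epithelia and around muscle and vessels (type IV), beaded filaments (type VI) or shed and membrane-bound forms. In the uterus, fibroblasts of the endometrial stroma and smooth muscle of the myometrium make most fibrillar collagen, epithelium and vessels rest on type IV collagen, and the amount of collagen changes in pregnancy.

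The libraries held from 14817228 to 23271988 counts on genes. The limit of detection was taken as 3 counts, which is 0.202 CPM (counts scaled to library size) in the shallowest library and covers counting error only. Mitochondrial genes took 1.94% to 7.57% of the counts in HSD17B1TG and 2.58% to 3.37% in WT. Reads of the human transgene were not analysed here. Levels are given as FPKM, the deposited fragments per kilobase of gene and per unit of library size, which are scaled per gene length and by 1 size factor per mouse. A chain was called when its adjusted p-value in the quasi-likelihood test of edgeR was below 0.05, its fold change above 2 and its mean FPKM above 1 in either group. Log2 fold changes compare HSD17B1TG with WT and are given with their standard error (SE).

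A part of the collagen chains fell in the HSD17B1TG uterus. Of the 44 chains, 40 passed the filter on low counts, and 7 of these fell by the rule above: *Col22a1*, *Col9a2*, *Col11a1*, *Col18a1*, *Col4a6*, *Col4a5* and *Col3a1*. Over all 16993 genes tested, 2.08% were called lower. No chain was called higher, compared with 2.16% of all genes. DESeq2 and limma voom also called 0 chains higher, and 1 chain (*Col17a1*) was higher at an unadjusted p below 0.05. At that unadjusted threshold 19 chains were lower, where 11.4% of all genes were lower and 14.7% higher. The log2 fold change was below 0 in 33 of the 40 chains and in 49.8% of all genes, and its median was -0.90 over the chains and 0.0021 over all genes. The number of called chains depended on single mice. It was 16 without TG1, 2 without TG2, 2 without TG4, 1 without TG5, 4 without WT1 and 2 without each of WT2, WT3 and WT5, and it was 3 by limma voom and 10 by DESeq2. Fits without a mouse also moved the number of all genes called lower, which was 354 with all mice and 575 without TG1. It was 60, 66 and 27 without TG2, TG4 and TG5, and 145, 56, 78 and 62 without WT1, WT2, WT3 and WT5. Of all genes, limma voom called 189 of 16993 lower, and DESeq2, the test of the study, 666 of 29089.

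**Figure D1:**
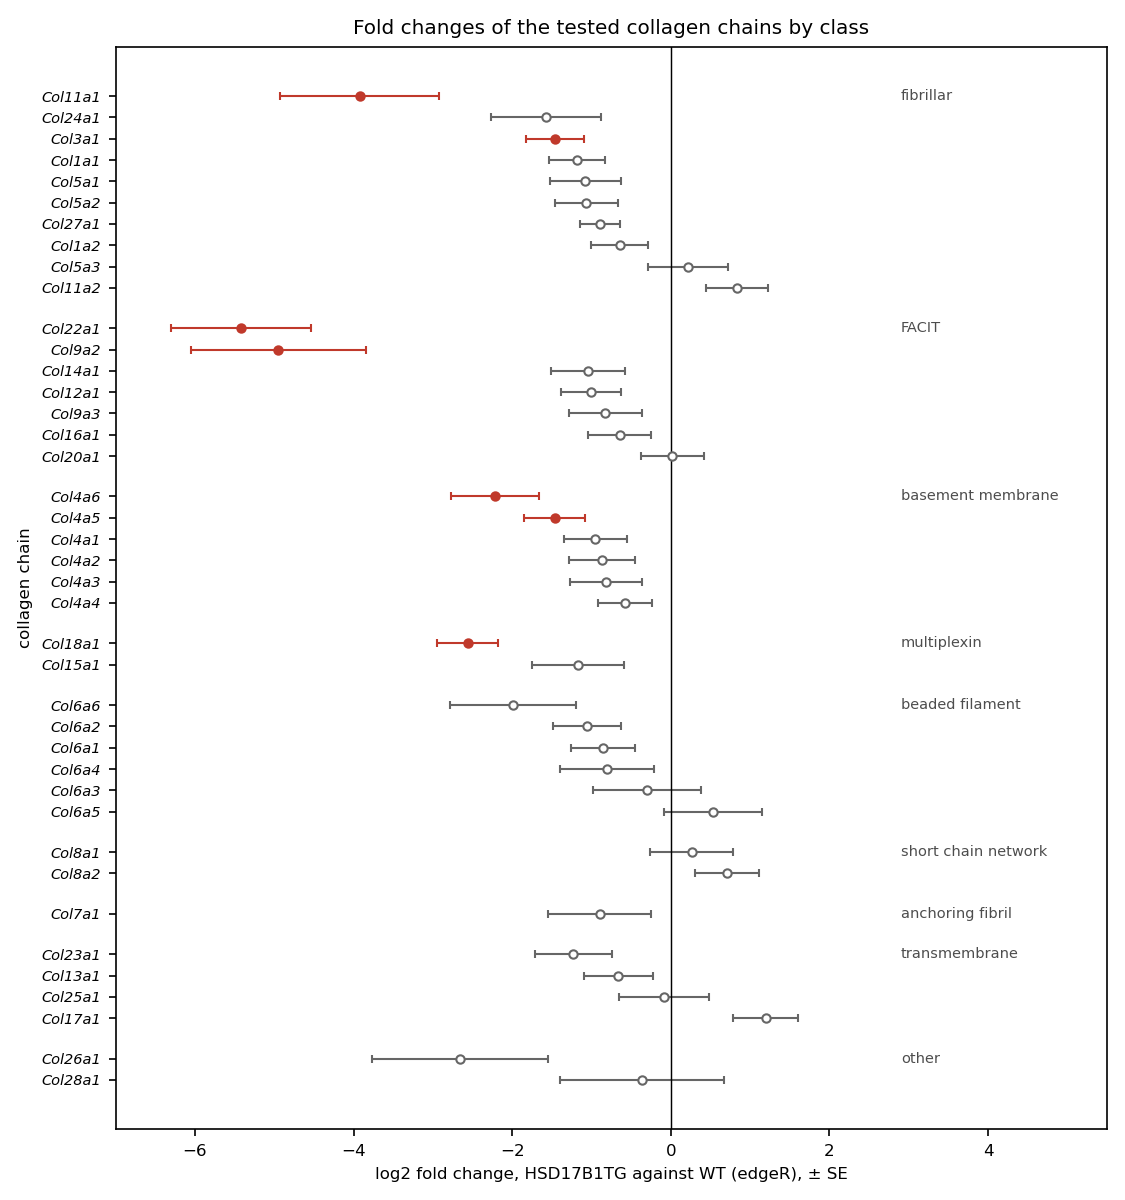
Log2 fold change of the 40 tested collagen chains, HSD17B1TG against WT, on the horizontal axis with bars of 1 SE on each side from edgeR, in rows grouped by class as named at the right. Filled red points are the 7 called chains and open grey points the others, and 33 of the 40 points lie left of 0.

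The share of all gene counts that fell on collagen chains was 2.24%, 1.22%, 1.25%, 0.877% and 0.401% in TG1 to TG5, and 3.01%, 2.71%, 2.53%, 2.64% and 2.5% in WT1 to WT5. The groups did not overlap, the HSD17B1TG mice were spread widely with TG1 nearest to WT and TG5 farthest, and the WT mice were close together. The mean share was 1.2% ± 0.676 in HSD17B1TG and 2.68% ± 0.203 in WT (SD, n = 5 each). As a sum over the chains it was not tested. The summed collagen FPKM, unlike the share, overlapped between the groups, with TG1 (2954) above WT3 (2945), the lowest WT mouse. In bulk RNA of a whole tissue, fewer cells of a type and less RNA per cell cannot be told apart. Of the 40 tested chains, the FPKM were below every WT mouse for 8 chains in TG1, 18 in TG2, 18 in TG3, 23 in TG4 and 27 in TG5. These are 20%, 45%, 45%, 57.5% and 67.5% of the chains, where 21.2%, 23.3%, 23.8%, 24.3% and 30.5% of all genes tested were below every WT mouse in TG1 to TG5. TG1 was above every WT mouse for 9 chains, or 22.5%, and for 23.7% of all genes, so that in both directions it was near the share of all genes. A WT mouse was below the other 4 WT mice for 4 to 12 chains, or 10% to 30%, and for 14.4% to 25.6% of all genes. It was above them for 3 to 14 chains, or 7.5% to 35%, and for 16% to 26.3% of all genes. The makeup of the collagen RNA by class is given as a description. Of the summed collagen FPKM, fibrillar chains made up 47.5% ± 1.96 in HSD17B1TG and 51.0% ± 7.57 in WT (SD, n = 5 each), type VI chains 39.1% ± 3.09 and 34.5% ± 11, and type IV chains 7.73% ± 1.85 and 7.68% ± 1.69. Multiplexins made up 2.26% ± 0.371 in HSD17B1TG and 3.99% ± 1.98 in WT. The short chains of types VIII and X made up 0.176% to 0.414% in HSD17B1TG and 0.0382% to 0.124% in WT. Their summed FPKM overlapped, at 1.96 to 5.19 in HSD17B1TG and 1.13 to 3.75 in WT.

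**Figure D2:**
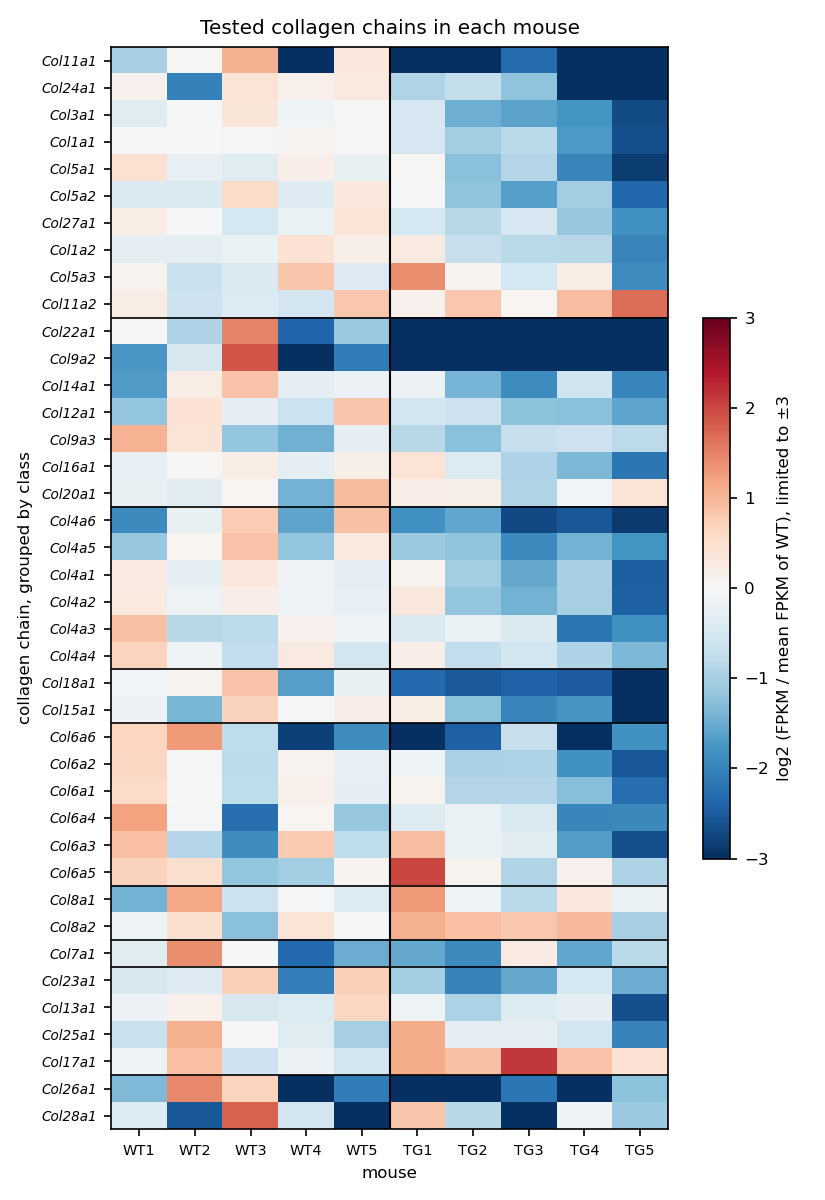
Level of each tested collagen chain (rows, grouped by class) in each mouse (columns, WT1 to WT5 and then TG1 to TG5) as log2 of its FPKM over the mean FPKM of the WT mice. Blue is below and red above the WT mean, colours stop at 3 in either direction, and an FPKM of 0 takes the darkest blue. TG1, with 8 chains below every WT mouse, is the palest and TG5, with 27, the darkest of the HSD17B1TG columns.

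Some stroma markers fell beside the collagen chains. Of 15 stroma markers tested, 7 were called lower and 0 higher (at an unadjusted p below 0.05, 9 lower and 0 higher, and 0 higher by DESeq2 and limma voom), with a median log2 fold change of -0.98. Over all genes tested, 2.08% were called lower and 2.16% higher, and 11.4% were lower and 14.7% higher at that unadjusted threshold. *Pdgfra*, a receptor that defines fibroblasts, had 17.4, 8.75, 6.61, 13.6 and 7.69 FPKM in TG1 to TG5 and 31.6, 32.2, 66.8, 25.3 and 58.6 FPKM in WT1 to WT5. It fell by 1.99 on the log2 scale (SE 0.36, adjusted p = 0.0219 in edgeR's quasi-likelihood test), and the groups did not overlap. The stroma list did not move as 1 block: its summed FPKM ran from 389 to 1560 in HSD17B1TG, highest in TG1, and from 1031 to 1798 in WT, and 3 of its 15 genes had a log2 fold change above 0. The count of 7 was 1 without TG2, 2 without TG4, 0 without TG5, 4 without WT1 and 2 without each of WT2, WT3 and WT5. In these fits 27 to 145 of all genes were called lower, where it was 354 with all mice.

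All 10 smooth muscle markers had a log2 fold change above 0, and 0 were called (0 at an unadjusted p below 0.05, and 0 by DESeq2 and limma voom). Their summed FPKM ranged from 879 to 7427 in HSD17B1TG and from 425 to 5831 in WT. *Myh11*, smooth muscle myosin, reached 948 FPKM in TG1 and 636 in WT4, which stood apart from the rest of their groups (108 to 434 and 29.8 to 189). Of 12 epithelial markers, 11 had a log2 fold change above 0 and 0 were called by edgeR, with 8 higher at an unadjusted p below 0.05, 3 higher by DESeq2 and 1 (*Elf3*, an epithelial transcription factor) by limma voom. The epithelial sum was 934 FPKM in TG1, 2417 to 4085 in the other 4 HSD17B1TG mice and 523 to 1988 in WT. *Epcam*, an adhesion protein of epithelia, was not called, with a mean of 303 ± 147 FPKM (SD, n = 5) against 129 ± 73.3 in WT. Of 10 endothelial markers, 9 had a log2 fold change below 0, with 0 called by edgeR and limma voom, 2 lower by DESeq2 and 4 lower at an unadjusted p below 0.05, and their sum ran from 30.4 to 116 FPKM in HSD17B1TG and from 74.5 to 186 FPKM in WT. *Pecam1*, which defines endothelium, averaged 12.9 FPKM in HSD17B1TG and 18.9 FPKM in WT. Of 6 mesothelial markers, 5 had a log2 fold change above 0, with 0 called by edgeR and limma voom, 1 higher by DESeq2 and 2 higher at an unadjusted p below 0.05, and *Upk3b*, which defines mesothelium, averaged 11.4 FPKM in HSD17B1TG and 4.00 FPKM in WT. Over all genes, 14.7% were higher and 11.4% lower at an unadjusted p below 0.05, and 49.8% had a log2 fold change below 0. *Pdgfra*, *Myh11*, *Epcam*, *Pecam1* and *Upk3b* were above 0 in every mouse. The part of these cell types and of the mitochondrial share in the collagen differences was not tested.

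**Figure D3:**
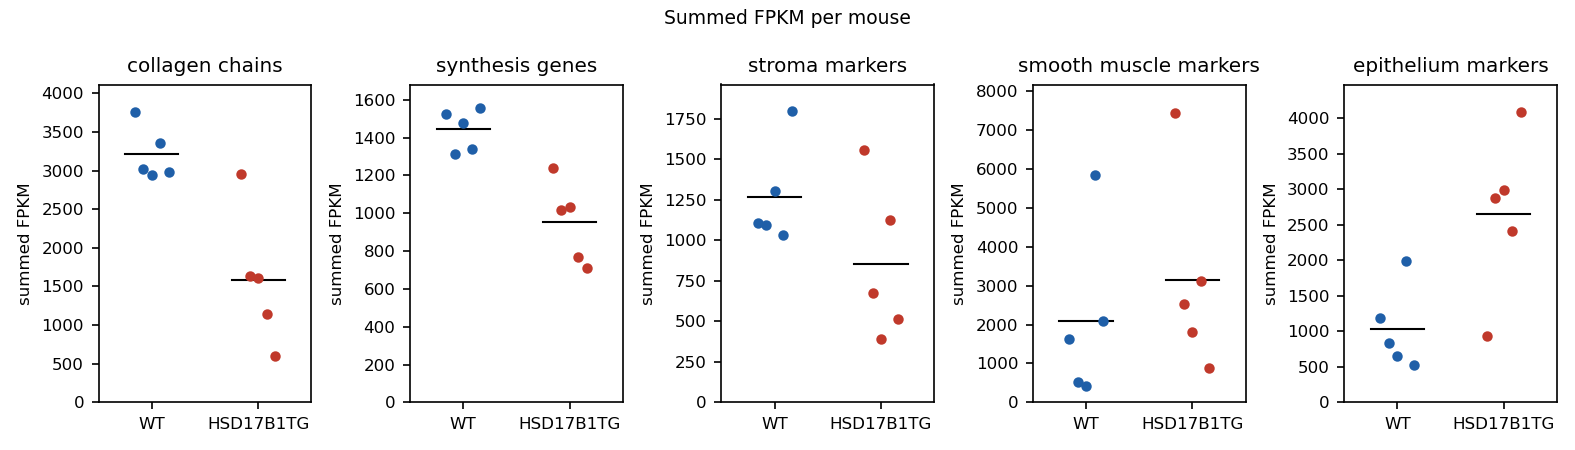
Summed FPKM per mouse (vertical axes, each from 0) of the collagen chains, of the genes for collagen synthesis and processing, and of stroma, smooth muscle and epithelium markers, with a dot per mouse in the order WT1 to WT5 and TG1 to TG5 and a line at the group mean. The collagen sum runs from 598 to 2954 in HSD17B1TG and from 2945 to 3759 in WT, and the mouse TG1 is the highest HSD17B1TG mouse in collagen, stroma and smooth muscle and the lowest in epithelium.

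Promoter sequence is shown for the 6 called chains that had a window. RefSeq windows on GRCm38.p6 were at hand for 35 of the 44 chains (38 windows, 6 of the 7 called chains). *Col22a1*, *Col1a1*, *Col2a1*, *Col4a3*, *Col5a2*, *Col9a3*, *Col12a1*, *Col14a1* and *Col26a1* had none. The stretches below hold the 250 bases before the annotated start, cut where a GENCODE M21 exon begins, and run 5′ to 3′ on the strand of the gene. They are chr1:45311288-45311537 (+) for *Col3a1*, chr3:114030290-114030539 (+) for *Col11a1*, chrX:141475169-141475384 (+) for *Col4a5*, chrX:141474077-141474326 (-) for *Col4a6*, chr10:77166549-77166780 (-) for *Col18a1*, at the upstream of its 2 starts, and chr4:121039316-121039384 (+) for *Col9a2*. Capitals mark matches, on either strand, to the TATA box (TATAAA), the CCAAT box (CCAAT) and the GC box (GGGCGG), which do not overlap each other here, and matches in the part that was cut are not shown.
*Col3a1*: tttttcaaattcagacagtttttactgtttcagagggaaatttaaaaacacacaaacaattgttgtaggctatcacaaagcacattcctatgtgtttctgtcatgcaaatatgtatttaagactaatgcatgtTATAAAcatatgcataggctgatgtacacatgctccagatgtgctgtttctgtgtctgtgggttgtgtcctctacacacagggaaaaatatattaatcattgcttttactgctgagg
*Col11a1*: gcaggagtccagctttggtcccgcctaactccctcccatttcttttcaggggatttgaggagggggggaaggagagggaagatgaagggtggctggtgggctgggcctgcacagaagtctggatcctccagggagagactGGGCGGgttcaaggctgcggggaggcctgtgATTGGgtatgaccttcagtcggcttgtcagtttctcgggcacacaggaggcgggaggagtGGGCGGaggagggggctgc
*Col4a5*: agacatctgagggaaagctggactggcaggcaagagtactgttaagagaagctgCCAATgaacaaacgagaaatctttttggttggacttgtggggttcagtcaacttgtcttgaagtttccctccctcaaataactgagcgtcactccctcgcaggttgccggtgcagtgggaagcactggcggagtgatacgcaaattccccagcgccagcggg
*Col4a6*: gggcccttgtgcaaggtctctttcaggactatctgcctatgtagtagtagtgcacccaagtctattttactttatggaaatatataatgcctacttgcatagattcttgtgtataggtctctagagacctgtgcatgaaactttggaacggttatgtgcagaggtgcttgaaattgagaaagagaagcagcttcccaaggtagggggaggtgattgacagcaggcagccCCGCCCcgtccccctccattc
*Col18a1*: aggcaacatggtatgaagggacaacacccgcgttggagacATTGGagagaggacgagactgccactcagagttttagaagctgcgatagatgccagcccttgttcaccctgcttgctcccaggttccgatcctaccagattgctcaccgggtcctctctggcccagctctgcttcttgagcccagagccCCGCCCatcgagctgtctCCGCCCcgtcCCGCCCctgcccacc
*Col9a2*: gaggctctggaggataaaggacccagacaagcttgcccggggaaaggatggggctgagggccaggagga
Over the full 250 bases, before any cut, the *Col3a1* window has a GC content of 35.2%, and the windows of the other stretches shown lie between 47.6% and 62.4%. A GC box was found in 22 of the 38 collagen windows (57.9%) and in 32.7% of all 32851 promoter windows of the same length. The CCAAT box was found in 13 windows (34.2%, against 33.8% of all) and the TATA box in 5 (13.2%, against 12.4% of all). The consensus estrogen response element, GGTCA and TGACC with any 3 bases between them, was in 0 of the 38 windows and in 0.0639% of all windows. These are matches of letters in a short window and say nothing of binding.

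Fibrillar collagens form the load-bearing fibrils of connective tissue. Of 11 chains, 10 were tested, and 2 fell (*Col3a1* and *Col11a1*), with a median log2 fold change of -1.07 over the class. At an unadjusted p below 0.05, 7 were lower and 0 higher, where 11.4% of all genes were lower. *Col27a1* was not called with all mice (log2 fold change -0.89, adjusted p = 0.0606 in edgeR's quasi-likelihood test) and was called lower without TG3. *Col3a1*, the type III chain of thin, stretchable fibrils (chr1:45311538-45349706), had 359, 184, 168, 147 and 80.1 FPKM in TG1 to TG5 and 399, 510, 660, 465 and 524 FPKM in WT1 to WT5. The groups did not overlap, with TG1 close under the lowest WT mouse. *Col3a1* fell by 1.46 on the log2 scale (SE 0.37, adjusted p = 0.0445 in edgeR's quasi-likelihood test). Its adjusted p lay between 0.0583 and 0.0993 without TG2, TG3, TG4, TG5, WT1, WT2, WT3 or WT5. *Col3a1* was among the 3 chains that limma voom called.

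*Col1a1* and *Col1a2* encode the 2 chains of type I collagen, the most abundant fibril protein. *Col1a1* (chr11:94936224-94953042) had the highest mean FPKM of all chains over the 10 mice, with 491, 339, 401, 212 and 112 FPKM in TG1 to TG5 and 685, 690, 671, 741 and 713 FPKM in WT1 to WT5. All HSD17B1TG mice lay below all WT mice, and the WT mice were nearly alike (700 ± 27.5 FPKM, SD, n = 5, against 311 ± 151). The log2 fold change was -1.18 (SE 0.35), but the adjusted p of 0.0671 in edgeR's quasi-likelihood test missed the threshold, and it was 0.0345 without TG1 and 0.0109 by DESeq2. *Col1a2* had 331, 170, 156, 156 and 69.5 FPKM in TG1 to TG5 and 224, 228, 242, 374 and 309 FPKM in WT1 to WT5. TG1 lay inside the WT range and the other 4 HSD17B1TG mice below it, and the log2 fold change of -0.65 (SE 0.36) did not pass the test (adjusted p = 0.289, edgeR's quasi-likelihood test).

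*Col11a1* (chr3:114030540-114220718), the chain that starts fibrils in cartilage, was a low transcript here. It was listed at 0 in TG1, with 0.0406, 0.296, 0.0487 and 0.0958 FPKM in TG2 to TG5 and 0.728, 1.5, 3.07, 0.182 and 1.80 FPKM in WT1 to WT5. These rest on 0 to 71 counts in HSD17B1TG and 48 to 631 in WT. The groups overlapped through WT4, which was below TG3. *Col11a1* fell by 3.93 on the log2 scale (SE 1.01, adjusted p = 0.0467 in edgeR's quasi-likelihood test). Without TG3 the log2 fold change was -5.01. The adjusted p ran from 0.0703 to 0.107 without TG2, TG4, TG5, WT1, WT2, WT3 or WT5 and was 0.0831 by limma voom.

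The type V chains, which set the diameter of fibrils, were not called with all mice. *Col5a1* averaged 33.2 ± 24.0 FPKM in HSD17B1TG and 69.9 ± 17.7 FPKM in WT (SD, n = 5 each) with a log2 fold change of -1.08 (adjusted p = 0.156 in edgeR's quasi-likelihood test), and *Col5a2* 21.9 ± 13.4 and 45.6 ± 16 FPKM with -1.07 (adjusted p = 0.120). In both, TG2 to TG5 lay below every WT mouse and TG1 inside the WT range. Without TG1 edgeR's quasi-likelihood test called both, at -1.56 and -1.49 (adjusted p = 0.0294 and 0.0250). *Col5a3*, the type V chain of lowest level, averaged 9.55 ± 7.29 FPKM in HSD17B1TG and 8.22 ± 3.87 FPKM in WT (SD, n = 5 each), with a log2 fold change of 0.21 (SE 0.50), which was -0.32 without TG1 and -0.03 by limma voom. *Col11a2* had the highest log2 fold change of the class, 0.83 (SE 0.39), and was not called. *Col2a1*, the fibril chain of cartilage, had at most 0.0813 FPKM in any mouse and was not tested. The cartilage marker *Acan*, the large proteoglycan of cartilage, lay between 0 and 0.136 FPKM in HSD17B1TG and between 0 and 0.116 FPKM in WT, and of the 3 cartilage markers that could be tested 0 were called by edgeR and limma voom, with 1 higher by DESeq2 and 1 lower and 1 higher at an unadjusted p below 0.05.

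**Figure D4:**
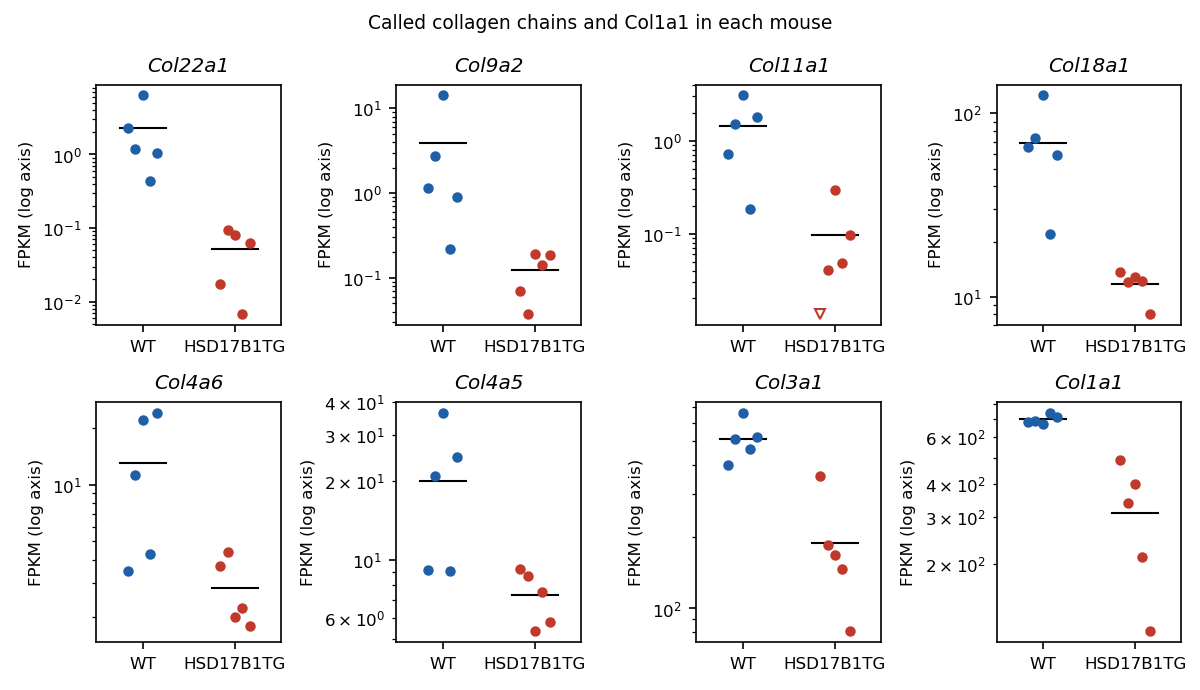
FPKM in each mouse (vertical log axes) of the 7 called collagen chains and of *Col1a1*, with a dot per mouse in the order WT1 to WT5 and TG1 to TG5 and a line at the group mean. The open triangle marks TG1 in the panel of *Col11a1*, where it was listed at 0 and is drawn below the axis values. The groups do not overlap in *Col22a1*, *Col9a2*, *Col18a1*, *Col3a1* and *Col1a1*.

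FACIT collagens attach to fibrils and carry interrupted helices. Of 9 chains, 7 were tested, and 2 fell, with a median log2 fold change of -1.01. *Col22a1* (chr15:71795795-72034227), known from tissue junctions such as that of muscle and tendon, had 0.0175, 0.0937, 0.0809, 0.0067 and 0.0628 FPKM in TG1 to TG5 and 2.28, 1.2, 6.35, 0.437 and 1.04 FPKM in WT1 to WT5. Every HSD17B1TG mouse was below every WT mouse, on 1 to 15 counts per mouse in HSD17B1TG and 83 to 942 in WT. *Col22a1* fell by 5.42 on the log2 scale (SE 0.88, adjusted p = 0.0177 in edgeR's quasi-likelihood test), the lowest fold change of the 40 tested chains, and the log2 fold change was -4.57 without WT3. Its adjusted p was below 0.05 in 15 of 16 alternative fits, the exception being the fit without TG5 (adjusted p = 0.0514).

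*Col9a2* (chr4:121039385-121055322), a chain of type IX collagen that coats cartilage fibrils, had 0.0693, 0.0371, 0.189, 0.140 and 0.187 FPKM in TG1 to TG5 and 1.14, 2.77, 14.2, 0.219 and 0.899 FPKM in WT1 to WT5. The groups did not overlap, although WT4 was close above the HSD17B1TG mice and WT3 far above all others, and the HSD17B1TG values rest on 2 to 11 counts per mouse. *Col9a2* fell by 4.95 on the log2 scale (SE 1.10, adjusted p = 0.0338 in edgeR's quasi-likelihood test). Without WT3 the log2 fold change was -3.35 with an adjusted p of 0.0563, without TG2, TG4, TG5, WT1, WT2 or WT5 the adjusted p lay between 0.0506 and 0.0847, and it was 0.142 by limma voom. *Col9a1*, its partner chain, and *Col19a1* were at 0 in all WT mice and had at most 5 counts in any HSD17B1TG mouse, so that both were at about the limit of detection. *Col16a1*, the most abundant FACIT chain, had 63.6 FPKM in TG1, 10.6 to 35.8 FPKM in TG2 to TG5 and 39.6 to 55.9 FPKM in WT. It was not called with all mice and was called lower without TG1.

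Type IV chains build the network of basement membranes. All 6 chains had a log2 fold change below 0, with a median of -0.91, and 2 of them fell. *Col4a5* (chrX:141475385-141689234) and *Col4a6* (chrX:141165403-141474076) are the X-linked pair of basement membranes around smooth muscle and some epithelia. They lie head to head, with RefSeq starts 1343 bases apart. *Col4a6* had 3.72, 4.38, 2.0, 2.23 and 1.79 FPKM in TG1 to TG5 and 3.47, 11.2, 22.1, 4.31 and 24.0 FPKM in WT1 to WT5, and *Col4a5* had 9.25, 8.67, 5.32, 7.53 and 5.78 FPKM in TG1 to TG5 and 9.16, 20.9, 36.4, 9.03 and 24.7 FPKM in WT1 to WT5. For both chains WT1 and WT4 were at the level of the HSD17B1TG mice, and WT2, WT3 and WT5 stood above all of them. *Col4a6* fell by 2.21 on the log2 scale (SE 0.56, adjusted p = 0.0445), and *Col4a5* by 1.46 (SE 0.38, adjusted p = 0.0494, both in edgeR's quasi-likelihood test). Without TG2, TG3, TG4, TG5, WT2, WT3 or WT5, the adjusted p of *Col4a6* lay between 0.0621 and 0.104 and that of *Col4a5* between 0.0673 and 0.112, and limma voom called neither.

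*Col4a1* and *Col4a2*, the chains of every basement membrane, are far more abundant and start 21 bases apart on opposite strands of chromosome 8. *Col4a1* had 128, 57.8, 40.8, 59.5 and 21.4 FPKM in TG1 to TG5 and 140, 98.1, 148, 109 and 97.2 FPKM in WT1 to WT5. *Col4a2* followed it mouse by mouse, with 114, 40.3, 34.1, 45.7 and 16.6 FPKM in TG1 to TG5 and 111, 81.2, 104, 81.8 and 76.1 FPKM in WT1 to WT5. In both chains TG2 to TG5 lay below every WT mouse, and TG1 at the level of WT. Neither was called (log2 fold change -0.95 ± 0.39 SE and -0.86 ± 0.42 SE, adjusted p = 0.157 and 0.216 in edgeR's quasi-likelihood test), whereas without TG1 the adjusted p was 0.0243 and 0.0198. Their annotated exons share 22 bases on opposite strands, 0.295% of those of *Col4a1*. *Col4a3* and *Col4a4*, the chains of kidney and lung basement membrane, averaged 0.462 and 1.03 FPKM in HSD17B1TG and 0.812 and 1.53 FPKM in WT and were not called.

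The multiplexins *Col18a1* and *Col15a1* are basement membrane proteoglycans, and the end of each can be cut off as a fragment that inhibits vessel growth (endostatin from type XVIII). *Col18a1* (chr10:77052178-77166548) had 13.7, 12.1, 12.9, 12.2 and 8.03 FPKM in TG1 to TG5 and 65.5, 73.1, 125, 22.1 and 59.4 FPKM in WT1 to WT5. The groups did not overlap, the HSD17B1TG mice were close together, and WT4 was the lowest WT mouse. *Col18a1* fell by 2.56 on the log2 scale (SE 0.38, adjusted p = 0.0171 in edgeR's quasi-likelihood test), with the smallest p of the tested chains. It was past 0.05 in all 16 alternative fits, with log2 fold changes from -2.79 to -2.25. *Col15a1* had 65.2, 23.8, 14.4, 16.6 and 5.48 FPKM in TG1 to TG5 and 50.0, 21.7, 90.4, 53.5 and 64.8 FPKM in WT1 to WT5. The groups overlapped, with TG1 inside the WT range and WT2 below TG2, and the log2 fold change of -1.17 (SE 0.58) did not pass the test (adjusted p = 0.231, edgeR's quasi-likelihood test), whereas without TG1 it was -1.90 with an adjusted p of 0.0334.

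Type VI chains form beaded filaments between cells and fibrils. With all mice, none of the 6 was called by edgeR or limma voom, 1 (*Col6a6*) by DESeq2, and 2 were lower at an unadjusted p below 0.05, with a median log2 fold change of -0.83. *Col6a1* had 616, 315, 313, 237 and 118 FPKM in TG1 to TG5 and 855, 573, 342, 638 and 477 FPKM in WT1 to WT5. *Col6a2* had 286, 159, 162, 88.4 and 53.0 FPKM in TG1 to TG5 and 480, 297, 179, 337 and 262 FPKM in WT1 to WT5. In both, TG1 lay inside the WT range, and TG2 to TG5 were below the lowest WT mouse, WT3. The log2 fold changes were -0.86 ± 0.40 SE and -1.06 ± 0.43 SE (adjusted p = 0.206 and 0.147 in edgeR's quasi-likelihood test). Without TG1 both were called, at -1.23 and -1.43 (adjusted p = 0.0498 and 0.0444). *Col6a3*, the largest chain of the filament, ran from 16.7 to 198 FPKM in HSD17B1TG and from 28.7 to 193 FPKM in WT, and *Col6a4* from 34.7 to 116 and from 28.2 to 312 FPKM. The groups overlapped in both chains, and their log2 fold changes were -0.30 ± 0.68 SE, which was above 0 (0.02) without WT1 and -0.90 without TG1, and -0.81 ± 0.59 SE, which was -0.26 without WT1.

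With all mice, the remaining classes held no called chain in edgeR or limma voom, and *Col23a1* was called lower by edgeR without WT4. At an unadjusted p below 0.05, *Col23a1* and *Col26a1* were lower and *Col17a1* was higher. *Col8a1* and *Col8a2* form the hexagonal network of type VIII collagen, and both had log2 fold changes above 0, that of *Col8a1* being -0.15 without TG1. *Col8a2* had 4.31, 3.85, 3.61, 4.02 and 1.03 FPKM in TG1 to TG5 and 1.84, 2.87, 0.856, 2.69 and 2.01 FPKM in WT1 to WT5. Except for TG5, the HSD17B1TG mice were above every WT mouse, and the log2 fold change of 0.71 (SE 0.41) did not pass the test (adjusted p = 0.297, edgeR's quasi-likelihood test). *Col17a1*, the hemidesmosome collagen of basal epithelial cells, had the highest log2 fold change of the 40 tested chains, 1.19 (SE 0.41, adjusted p = 0.0980 in edgeR's quasi-likelihood test), at 0.401 to 1.29 FPKM in HSD17B1TG and 0.194 to 0.557 FPKM in WT. *Col7a1*, which anchors basement membranes, and the other transmembrane chains had overlapping groups. *Col26a1* had a log2 fold change of -2.66 (SE 1.11, adjusted p = 0.159 in edgeR's quasi-likelihood test) with overlapping groups, and DESeq2 called it. *Col10a1*, of growth cartilage, was not tested, and had 1 to 30 counts per mouse in HSD17B1TG and 0 to 10 in WT, a mean of 0.303 against 0.0601 FPKM.

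By level, all 16 chains with a mean of 10 FPKM or more had a log2 fold change below 0, with a median of -1.05 and a range from -2.56 to -0.30. Of the 15 chains between 1 and 10 FPKM, 11 were below 0 (median -1.01), and of the 9 tested chains under 1 FPKM, 6 were below 0 (median -0.36). The 5 chains whose FPKM did not overlap between the groups were *Col1a1*, *Col3a1*, *Col18a1*, *Col9a2* and *Col22a1*, all lower in HSD17B1TG, where 2.65% of all genes were lower without overlap and 4.04% higher. Without TG1, 14 of the tested chains were lower without overlap, where the share of all genes was 5.79%.

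Chains of a shared molecule were also compared as ratios of their FPKM within each mouse, for 12 ratios with two-sided exact permutation tests over all assignments of the mice to the groups, of which the smallest possible p is 0.00794. None passed 0.05 after Benjamini-Hochberg adjustment (smallest adjusted p = 0.190), and 2 were below 0.05 before it. A single ratio with complete separation could reach an adjusted p of 0.0952 at best among 12, so that 1 ratio alone could not pass. *Col1a1*/*Col1a2* was 1.48, 1.99, 2.56, 1.36 and 1.61 in TG1 to TG5 and 3.06, 3.03, 2.77, 1.98 and 2.30 in WT1 to WT5. The geometric means were 1.75 and 2.59, and the mean log2 ratio was lower by a difference of -0.56 (n = 5 per group, exact permutation p = 0.0397, adjusted p = 0.222). *Col6a1*/*Col6a2* was 2.15, 1.98, 1.93, 2.68 and 2.22 in TG1 to TG5 and 1.78, 1.93, 1.91, 1.89 and 1.82 in WT1 to WT5. Its geometric means were 2.18 and 1.87, a log2 difference of 0.22 (n = 5 per group, exact permutation p = 0.0159, adjusted p = 0.190). *Col4a1*/*Col4a2* was held within 1.13 to 1.43 in HSD17B1TG and 1.21 to 1.42 in WT, a log2 difference of -0.04 (exact permutation p = 0.627), while both chains varied several-fold between HSD17B1TG mice. *Col4a6*/*Col4a5* had geometric means of 0.371 and 0.564 (log2 difference -0.60, n = 5 per group, exact permutation p = 0.0556, adjusted p = 0.222).

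**Figure D5:**
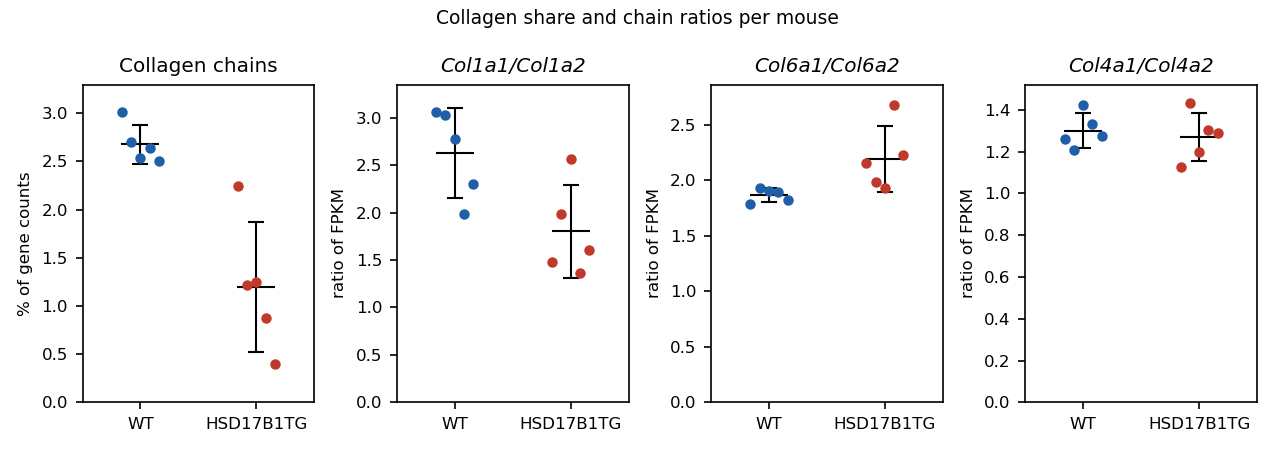
Share of gene counts on collagen chains in percent (left panel) and ratio of FPKM of *Col1a1* to *Col1a2*, *Col6a1* to *Col6a2* and *Col4a1* to *Col4a2* (other panels), with a dot per mouse in the order WT1 to WT5 and TG1 to TG5 and the arithmetic mean ± SD (n = 5). The share does not overlap between the groups (0.401% to 2.24% against 2.5% to 3.01%), while each ratio overlaps.

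Some genes that make and process collagen also fell. Of the 38 tested genes of a list of 39 for hydroxylation, folding, proline supply, secretion, trimming and crosslinking, 4 were called lower and 0 higher (15 lower and 1 higher at an unadjusted p below 0.05, 6 lower by DESeq2, 4 lower by limma voom and 0 higher by both). The log2 fold change was below 0 in 28, with a median of -0.34. Of all genes, 49.8% had a log2 fold change below 0, 2.08% were called lower, and 11.4% were lower at an unadjusted p below 0.05. *Serpinh1*, the chaperone HSP47 that binds the collagen helix, had 310, 193, 221, 126 and 85.5 FPKM in TG1 to TG5 and 434, 402, 427, 354 and 518 FPKM in WT1 to WT5. It fell by 1.2 on the log2 scale (SE 0.31, adjusted p = 0.0471 in edgeR's quasi-likelihood test), with no overlap. *P3h1*, a prolyl 3-hydroxylase, fell by 1.55 (adjusted p = 0.0305), *Fkbp14*, a folding enzyme, by 1.54 (adjusted p = 0.0476), and *Pycr1*, which makes proline, by 1.41 on the log2 scale (adjusted p = 0.0440, all in edgeR's quasi-likelihood test). The count of 4 was 9 without TG1, 3 without TG3 and 5 without WT4. Without any 1 of TG2, TG4, TG5, WT1, WT2, WT3 and WT5 it was 0, as were the counts of receptor and breakdown genes given next. In these fits 27 to 145 of all genes were called lower and 38 to 100 higher, where it was 354 and 367 with all mice.

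Of 11 collagen receptor genes, 1 fell and 1 rose, where 2.08% of all genes were called lower and 2.16% higher. *Ddr1*, a receptor tyrosine kinase that binds collagen on epithelial cells, had 40.4, 40.5, 35.2, 43.2 and 41.8 FPKM in TG1 to TG5 and 21.4, 13.9, 11.5, 28.2 and 19.2 FPKM in WT1 to WT5. It rose without overlap, by 1.09 on the log2 scale (SE 0.22, adjusted p = 0.0258 in edgeR's quasi-likelihood test). *Cd93*, an endothelial membrane protein that the list holds, averaged 5.73 ± 2.35 FPKM in HSD17B1TG and 18.3 ± 7.69 FPKM in WT (SD, n = 5 each) and fell by 1.68 on the log2 scale (SE 0.38, adjusted p = 0.0346 in edgeR's quasi-likelihood test). The median of the list was 0.22. Of 20 genes for collagen breakdown, 2 rose and 0 fell by edgeR, where 6 were higher and 1 lower at an unadjusted p below 0.05. At that unadjusted threshold 14.7% of all genes were higher and 11.4% lower. DESeq2 called 3 higher and limma voom 2, and both called *Reck*, an inhibitor of matrix metalloproteinases, lower. The 2 called by edgeR were lysosomal proteases: *Ctsl* (176 ± 119 FPKM, SD, n = 5, against 47.5 ± 21.4, log2 fold change 1.89, adjusted p = 0.0396 in edgeR's quasi-likelihood test) and *Ctss* (77.4 ± 31.2 against 29.1 ± 10.1 FPKM, log2 fold change 1.40, adjusted p = 0.0351). *Mmp12*, the macrophage metalloelastase, was higher without overlap (0.494 ± 0.192 against 0.0534 ± 0.0522 FPKM, log2 fold change 3.18, adjusted p = 0.0328 in edgeR's quasi-likelihood test), but its mean was below 1 FPKM in both groups and it was not called. *Mmp9*, a secreted gelatinase, was the gene called higher by DESeq2 alone (2.20 ± 1.65 against 0.667 ± 0.388 FPKM, adjusted p = 0.122 in edgeR's quasi-likelihood test). The median of the list was 0.36. Beside the proteases, the macrophage marker *Cd68* and the leucocyte marker *Laptm5* were called higher, 1 of 8 markers in each list, with 0 lower by edgeR and limma voom and, among the leucocyte markers, 2 lower by DESeq2. The lists as a whole did not rise alike: the log2 fold change was below 0 in 7 of the 8 leucocyte markers (median -0.59). It was below 0 in 2 of the 8 macrophage markers (median 0.13). *Ptprc*, which defines leucocytes, averaged 0.939 FPKM in HSD17B1TG and 1.98 FPKM in WT, and 3 leucocyte markers and 0 macrophage markers were lower at an unadjusted p below 0.05. The part of immune cells in these values was not tested. *Gp6* and *Mmp8* were not analysed here.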

How the data were processed

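RNA-seq of the uterus of 5 HSD17B1TG and 5 WT mice was analysed from the table the authors deposited. The authors mapped the reads with HISAT2 (version 2.0.5 per the labels) to the mouse genome (GRCm38). The deposited values used here are the raw count and the FPKM of each gene in each mouse. Counts were as deposited by the authors. The deposited FPKM proved to be scaled by gene length and by 1 DESeq2 size factor per mouse, not by the total of the mouse. How reads were counted, and with which strand setting, is not given in the sources used here, so reads in exons shared by 2 genes could have gone to either. Among the chains such overlaps covered at most 6.07% of the exon bases (*Col9a3* with *Tcfl5*). Counts divided by size factors, the authors' comparison columns (fold changes and p-values) and the deposited enrichment tables were not used.

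Groups follow the genotype label of each mouse, and no covariate was used, since neither litter nor batch is labelled. Counts of all genes entered the quasi-likelihood test of edgeR 4.0.16 with R 4.3.3 (filterByExpr, TMM, glmQLFit and glmQLFTest, Benjamini-Hochberg over 16993 genes). The SE is the absolute log2 fold change over the square root of F. Thresholds follow the study's methods, but the study's own test was DESeq2, used here as an alternative. With DESeq2, 666 of all genes were called lower and 906 higher, the numbers that the study reports. The chains called lower were then 10, namely the 7 above with *Col1a1*, *Col6a6* and *Col26a1*. Ratios of chains were tested with two-sided exact permutation tests, adjusted over 12 ratios. Sums over chains were not tested. Methods were tested on simulated counts. Alternatives were DESeq2 1.42.0, limma voom 3.58.1, RLE and upper quartile normalization, no filter or at least 1 CPM in 5 mice, other denominators and a pseudocount of 0.1 for ratios, and each mouse left out in turn.

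The members and gene lists were chosen with earlier results of these data known. Named were all called chains, the 10 with the highest mean FPKM, those without overlap between groups, those of the ratios, extremes of a class, up to 4 called genes per list and direction, and 1 defining marker per cell type. *Col5a3*, *Col6a5*, *Col20a1*, *Col25a1*, *Col27a1*, *Col28a1*, *Col9a1*, *Col10a1*, *Col16a1*, *Col19a1*, *Col23a1*, *Col6a6*, *Reck*, *Mmp12*, *Mmp9*, *Elf3*, *Laptm5* and *Cd68* were named after their values were seen, and the fits of stroma markers without each mouse were added then. Gene positions are those of the table and are the same in GENCODE M21 for all 44 chains. Promoter windows come from RefSeq (GRCm38.p6).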

Additional observations from a re-analysis of the deposited data

Results flagged for a closer look

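Of 46 groups of 5 values, the FPKM of the named chains and the collagen share, 3 held a mouse that stood far from the other 4 by Dixon's criterion, and chance marks about 1 in 20 groups. TG5 was low for 2 chains: *Col18a1* at 8.03 FPKM, with 12.1 to 13.7 in the other 4 HSD17B1TG mice, and *Col8a2* at 1.03 FPKM, with 3.61 to 4.31 in the others. TG5 also had the lowest collagen share of counts, 0.401%. WT3 was high for *Col9a2* at 14.2 FPKM, with 0.219 to 2.77 in the other 4 WT mice, and WT3 was also the highest WT mouse for *Col22a1* (6.35 FPKM), *Col11a1* (3.07 FPKM) and *Col18a1* (125 FPKM). Its *Acan* was 0.116 FPKM.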

How the results depend on the processing

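Limits: 3 chains had an adjusted p between 0.05 and 0.1 and 20 of 40 above 0.2, the number of called chains changed with single mice, and values near 0.202 CPM rest on a few counts. With a mouse left out, the chains called lower ranged from 1 to 16, the synthesis genes from 0 to 9, receptor genes lower and higher each from 0 to 1, breakdown genes higher from 0 to 2 and lower from 0 to 1, chains without overlap (of all 44, in either direction) from 5 to 15 and, in fits chosen after seeing the data, stroma markers lower from 0 to 7. The highest chain counts came without TG1. Over all genes, the number called lower ranged from 27 to 666 with a mouse left out. limma voom called 3 chains lower. DESeq2 and limma voom each called 1 breakdown gene lower. The difference in collagen share was -0.571 percentage points for the share of summed FPKM, in place of -1.48, a change of unit, since HSD17B1TG had 44.6% of the WT share there and 44.7% by counts. Without adjustment 2 ratios were below 0.05. Over all alternatives 7 of the 40 tested chains turned direction, with no call on either side: *Col5a3*, *Col6a5*, *Col20a1*, *Col25a1*, *Col28a1*, *Col6a3* (log2 fold change -0.90 to 0.0173, above 0 without WT1) and *Col8a1* (-0.15 to 0.78, below 0 without TG1). With a mouse left out so did the log2 differences of *Col5a1*/*Col1a1* (-0.152 to 0.125), *Col5a2*/*Col5a1* (-0.0571 to 0.401), *Col4a1*/*Col4a2* (-0.0819 to 0.0053) and *Col4a5*/*Col4a1* (-0.412 to 0.114). The 7 called chains kept their direction in every fit that tested them. *Col9a2* did not pass the filter of at least 1 CPM in 5 mice and had no value there. The causes were not tested.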
